A study of Mus musculus with 9 samples.

Results

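Granulosa cells of mice given cyclophosphamide (CTX) were compared with those of Control mice, on 6 of the 9 libraries of the series, 3 per group. Of the 56748 gene identifiers in the deposited table, 13793 reached at least 1 FPKM in at least 3 of these 6 libraries and were tested. FPKM is the number of sequenced fragments per kilobase of exon, scaled to library size, so it is a level per length. The cells had been isolated from ovaries of wild-type female C57BL/6 mice without culture, and polyadenylated RNA was sequenced. CTX mice had received cyclophosphamide at 120 mg per kg by injection and no hydroxychloroquine. Control mice had received neither drug, although the design text speaks of a vehicle and the labels of no treatment. The labels give neither the age of the animals nor the day of collection for these groups, nor how many mice a library stands for. The p-values therefore rest on the spread between 3 libraries a group, which may be technical.

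Cyclophosphamide is a prodrug that the liver converts to an alkylating agent. The agent crosslinks DNA and damages growing follicles, whose granulosa cells divide. Granulosa cells surround the oocyte and lie on a basement membrane that closes the follicle off from the theca and its vessels. They respond to follicle-stimulating hormone, make inhibin, anti-Müllerian hormone and oestrogen, and after ovulation become the luteal cells that make progesterone.

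Promoter sequences are given for 5 genes of cytokine and interferon signalling that carry the letters bound by the factors known to act on them. Cish, Isg15, Ifit1 and Ifit3 were higher in every CTX library, and Bcl6 was lower. Cish is a target of STAT5, whose family binds the GAS motif, searched here as TTCNNNGAA. Isg15, Ifit1 and Ifit3 are induced through the interferon-stimulated response element (ISRE), searched as its core, GAAA and GAAA again with any 2 bases between. Both strands were searched over 300 bases, from 250 before to 50 after the start in RefSeq on GRCm38.p6, of which 270 are printed 5′ to 3′ on the strand of the gene. Bcl6 has 2 promoters in that table, and both are given. Capitals mark GAS matches in Cish and Bcl6 and ISRE core matches in the other genes, and neighbouring matches may overlap.
Cish, chr9:107296409-107296678, plus strand: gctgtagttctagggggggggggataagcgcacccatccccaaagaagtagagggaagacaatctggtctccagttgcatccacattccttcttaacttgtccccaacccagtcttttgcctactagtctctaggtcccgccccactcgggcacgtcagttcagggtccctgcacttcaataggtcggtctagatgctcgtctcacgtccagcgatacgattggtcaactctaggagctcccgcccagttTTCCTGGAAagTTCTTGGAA
Bcl6, chr16:23988833-23989102, minus strand: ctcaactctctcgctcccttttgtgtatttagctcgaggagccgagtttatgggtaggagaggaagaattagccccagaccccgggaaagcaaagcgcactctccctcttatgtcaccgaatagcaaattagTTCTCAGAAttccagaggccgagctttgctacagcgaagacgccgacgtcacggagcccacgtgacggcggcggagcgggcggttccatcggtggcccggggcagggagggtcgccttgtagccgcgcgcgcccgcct
Bcl6, chr16:23981264-23981533, minus strand: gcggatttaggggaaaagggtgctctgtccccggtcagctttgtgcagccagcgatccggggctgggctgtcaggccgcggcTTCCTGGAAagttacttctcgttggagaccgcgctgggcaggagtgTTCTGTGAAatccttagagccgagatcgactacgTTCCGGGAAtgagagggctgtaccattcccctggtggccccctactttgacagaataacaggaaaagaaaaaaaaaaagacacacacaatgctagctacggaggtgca
Isg15, chr4:156200799-156201068, minus strand: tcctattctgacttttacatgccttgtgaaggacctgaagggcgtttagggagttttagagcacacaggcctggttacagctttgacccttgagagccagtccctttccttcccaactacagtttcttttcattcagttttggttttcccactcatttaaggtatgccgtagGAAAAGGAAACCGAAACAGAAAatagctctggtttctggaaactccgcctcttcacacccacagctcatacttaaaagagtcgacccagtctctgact
Ifit1, chr19:34640639-34640908, plus strand: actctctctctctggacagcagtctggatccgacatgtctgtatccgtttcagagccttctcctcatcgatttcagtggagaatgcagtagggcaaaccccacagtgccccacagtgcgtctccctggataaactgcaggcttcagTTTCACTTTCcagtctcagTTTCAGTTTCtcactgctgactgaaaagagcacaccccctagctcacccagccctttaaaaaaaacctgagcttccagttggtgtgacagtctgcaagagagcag
Ifit3, chr19:34583279-34583548, plus strand: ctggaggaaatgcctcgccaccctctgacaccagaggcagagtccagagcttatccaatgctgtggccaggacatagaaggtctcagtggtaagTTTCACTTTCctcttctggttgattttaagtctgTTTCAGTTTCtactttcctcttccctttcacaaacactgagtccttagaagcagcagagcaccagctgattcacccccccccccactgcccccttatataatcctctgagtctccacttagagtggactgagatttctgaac
The ISRE core occurred in the promoters of 18 of the 28 tested interferon-stimulated genes that matched the RefSeq table, 64.3%, against 364 of 9839 matched tested genes, 3.70%, and 3.99% of all 27025 genes of that table. GAS occurred in 4 of 19 matched JAK-STAT genes, Bcl6 and Cish among them, 21.1%, against 8.25% of matched tested genes. It also occurred in 10 of the 28 matched interferon-stimulated genes, 35.7%. The sterol response element, searched as TCACNCCAC, occurred in 1 of 21 matched cholesterol genes, Hmgcs1, against 1.51%. A match describes the letters of the window and is no evidence of binding.

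The 6 libraries held 16.1 to 17.3 M recovered reads each. They did not fall into the labelled groups as a whole. Across tested genes Control 1 correlated at 0.975 with CTX 2 and at 0.961 with CTX 1, but at 0.952 with Control 2 and 0.947 with Control 3, which correlated at 0.983 with each other. CTX 3 correlated at 0.904 to 0.943 with the other 5 libraries, and mitochondrial transcripts made up 28.9% of its FPKM against 13.1% to 17.5% in the others. Levels also followed gene length, to a different degree in each library. CTX 3 and CTX 1 lay above the 6-library mean for the shortest of 5 length classes of genes, by median log2 deviations of 0.23 and 0.15, and below it for the longest, by -0.18 and -0.09. CTX 2 took the course of the Control libraries, at -0.04 and 0.03. The median log2 difference between CTX and Control thus ran from 0.21 in the shortest class to -0.15 in the longest. All CTX values exceeded all Control values in 16.0% of the shortest genes and in 2.73% of the longest, and lay below them in 4.09% and 20.9%.

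**Figure D1:**
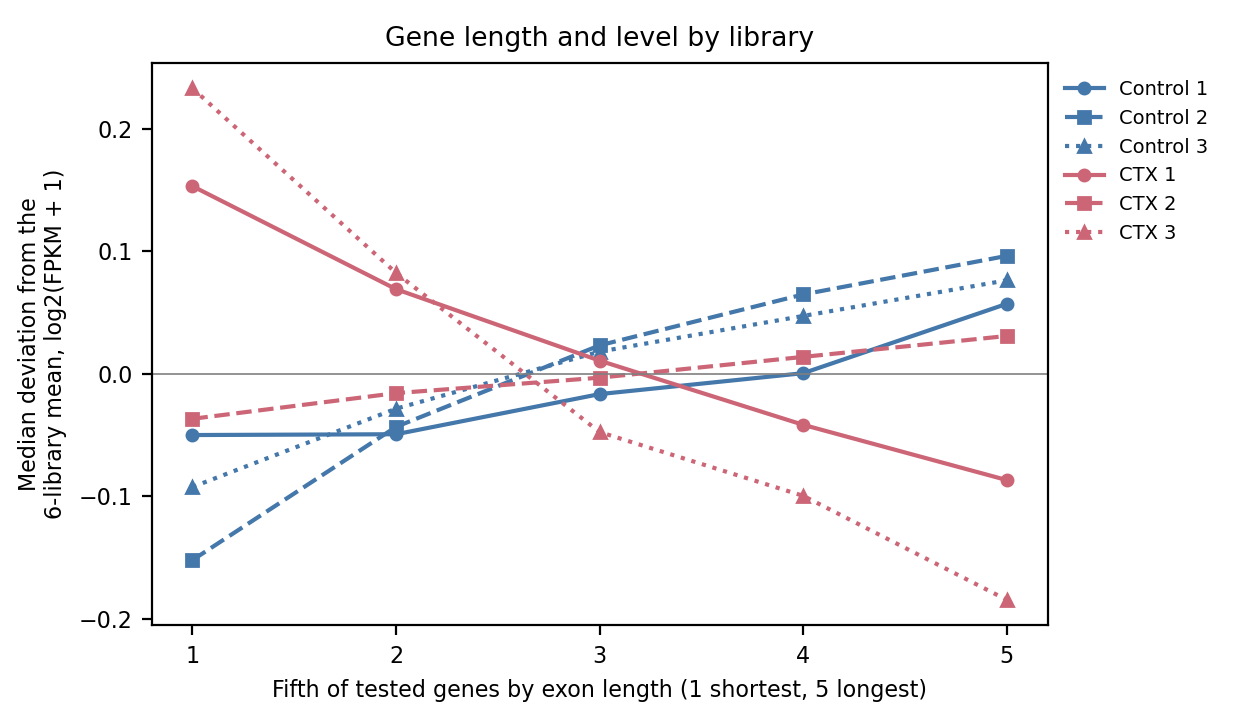
Median deviation from the 6-library mean on log2(FPKM + 1) (vertical axis) of tested genes in 5 classes of exon length (horizontal axis, shortest to longest), with 1 line per library. CTX 3 and CTX 1 slope downwards, while CTX 2 and the Control libraries slope upwards.

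No gene passed the test. Limma called 0 of 13793 genes at an adjusted p of 0.05, a share of 0%, with a smallest adjusted p of 0.185, and limma's voom on recovered reads called 0 of 13076. An unadjusted p under 0.05 was reached by 1986 genes, 944 of them higher and 1042 lower in CTX, and 1945 with voom. Equal FPKM sums without mitochondrial genes changed that split from 47.5% higher to 36.3% higher. The groups did not overlap in 2737 genes, 19.8%. In 1213, 8.79% of those tested, all CTX values lay above all Control values, and in 1524, 11.0%, all lay below. These shares are the background for every gene group. Without Control 1, limma called 405 genes, 2.94%, with 191 higher and 214 lower. Leaving out any of the other 5 libraries gave 0 calls, and between 849 and 2701 genes at an unadjusted p under 0.05. With library weights 795 genes were called. Since no gene passed, every difference below is given as values, on log2(FPKM + 1), which understates the change of genes of low FPKM, with its standard error (SE).

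Genes that separated the groups most cleanly included a receptor, a transporter and matrix genes on the lower side, and feedback regulators on the higher side. Oxtr (ENSMUSG00000049112), the oxytocin receptor, had the smallest p of all. It stood at 62.2, 57.3 and 70.5 FPKM in Control 1 to 3 and at 31.3, 24.2 and 24.2 in CTX 1 to 3, a log2 difference of -1.23 (SE 0.17, limma adjusted p = 0.185). Slc18a2, a vesicular monoamine transporter enriched in granulosa cells, held 50.5, 58.6 and 55.9 FPKM in Control and 27.97, 27.5 and 32.9 in CTX (log2 difference -0.88, SE 0.15). In both genes each group was tight, and the lowest Control library lay well above the highest CTX library. Kcnk3, a potassium channel, stood at 33.0, 44.7 and 53.2 against 17.5, 17.7 and 21.7 FPKM. Hs6st1, which sulfates heparan sulfate, stood at 37.4, 59.8 and 67.5 against 19.3, 23.1 and 19.9 FPKM. Tgfbr3, the betaglycan that presents inhibin and TGF-beta to their receptors, stood at 18.2, 25.1 and 21.2 against 10.2, 12.6 and 9.54. In Kcnk3 and Hs6st1 Control 1 was the lowest of its group, nearest to CTX. The other lower genes of smallest p were Mtss1l, Nol4l, Synm, Hspg2, Crispld2, Zfp862-ps and Slc45a4, with log2 differences from -1.46 to -0.69.

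On the higher side Slfn4, of the interferon-inducible Schlafen family, had the smallest p, with 6.98, 4.16 and 3.83 FPKM in Control and 14.6, 13.5 and 16.1 in CTX (log2 difference 1.43, SE 0.21, limma adjusted p = 0.185). Rasd1, a Ras-like protein induced by glucocorticoids, stood at 29.3, 16.2 and 15.6 against 45.7, 59.9 and 67.8 FPKM. Rasl11a, another small Ras-like protein, stood at 11.1, 11.7 and 8.54 against 47.0, 22.7 and 34.0. In Rasl11a the CTX libraries spread more widely than the Control libraries, with CTX 2 the lowest of them and still above every Control library. Tmsb10, an actin-sequestering thymosin, stood at 216, 154 and 173 FPKM against 466, 326 and 536. Ly6a, a membrane protein also known as Sca-1 and inducible by interferon, stood at 11.3, 6.47 and 7.95 against 22.3, 21.5 and 16.6. Cish, Fos, Ccdc102a, Rps26-ps1, Ddah2, Hemk1 and Phlda1 complete the list, with log2 differences from 0.88 to 1.66. Rps26-ps1 is a copy of a ribosomal protein gene, and its reads may be shared with the parent gene.

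**Figure D2:**
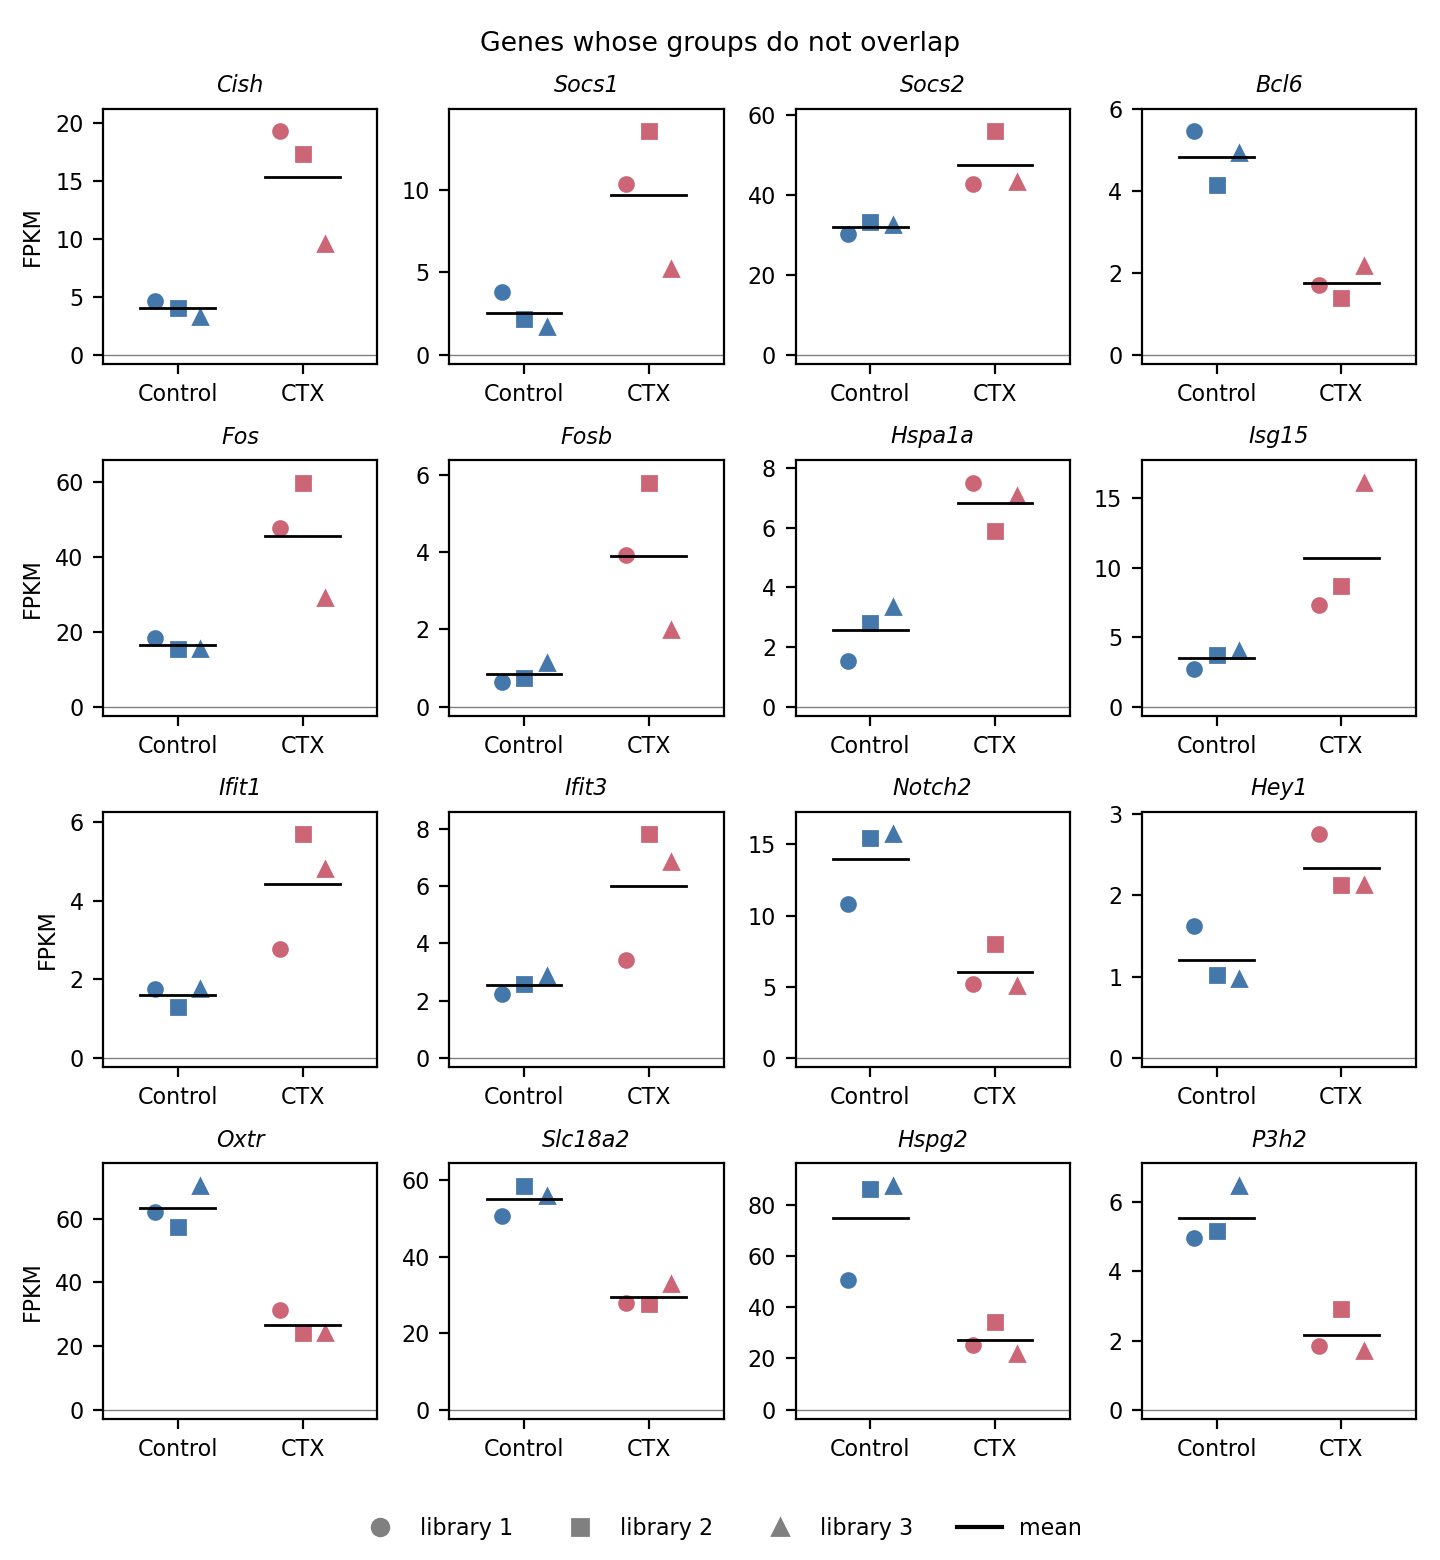
FPKM (vertical axis, from 0) of 16 genes whose groups do not overlap, in Control and CTX; points are libraries, with the symbol giving the replicate number, and the bar is the mean of 3. Oxtr and Slc18a2 are tight within groups, while Cish, Fos and Fosb are lowest among the CTX libraries in CTX 3.

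Cytokine signalling through JAK and STAT is shut off by the SOCS family, which STAT proteins induce. Cish, the family member whose promoter is shown above, held 4.69, 4.07 and 3.31 FPKM in Control and 19.3, 17.3 and 9.52 in CTX (log2 difference 1.66, SE 0.26, limma adjusted p = 0.210). Socs1 held 3.79, 2.20 and 1.69 against 10.3, 13.5 and 5.21 FPKM, and Socs2 30.3, 33.2 and 32.4 against 42.8, 56.0 and 43.4. In Cish and Socs1 CTX 3 was the lowest CTX library, yet above all Control libraries. Bcl6, a repressor that STAT5 silences, went the other way, with 5.47, 4.14 and 4.93 FPKM in Control and 1.71, 1.40 and 2.16 in CTX (log2 difference -1.09, SE 0.18). The wider list of JAK-STAT and SOCS genes was not shifted as a whole: of 24 tested members of 26, 11 were higher and 13 lower. The groups did not overlap in 3 higher and 3 lower, 12.5% each against backgrounds of 8.79% and 11.0%. The median was -0.03 against -0.01 for all tested genes. Jak1, a kinase of the pathway, stood at 82.5, 80.0 and 64.8 against 67.8, 102 and 74.6 FPKM.

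Signal-induced genes of other pathways also stood on both sides. Among immediate early genes, which growth factors and stress switch on within minutes, 17 of 28 tested members were higher. The groups did not overlap in 6 on the higher side, 21.4% against a background of 8.79%, and in 4 on the lower, 14.3% against 11.0%. The median of 0.13 stood at 0.05 without CTX 1, 0.26 without CTX 3 and 0.26 without Control 1. Fos held 18.3, 15.3 and 15.5 FPKM in Control and 47.7, 59.8 and 28.9 in CTX, and Fosb, at low level, 0.642, 0.732 and 1.13 against 3.92, 5.80 and 1.98. Gadd45g, a stress-induced growth arrest gene, held 13.3, 14.8 and 16.3 against 25.3, 26.7 and 43.8 FPKM. Fosl2, a partner of the same family, was lower, at 74.8, 70.6 and 67.9 against 55.8, 55.8 and 36.4. Jun, named here after its values were seen, held 17.0 FPKM in Control 1, 47.8 and 54.4 in Control 2 and 3, and 70.5, 70.9 and 84.7 in CTX. Egr1, likewise, was highest in Control 1 at 86.5 FPKM and lay between 27.5 and 47.0 in the other 5 libraries.

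In the Notch pathway, by which neighbouring cells signal through a cleaved receptor, the receptor gene Notch2 stood at 10.8, 15.4 and 15.7 FPKM in Control and 5.17, 7.99 and 5.03 in CTX (log2 difference -1.09, SE 0.22). Of the named members that Notch is known to induce, 3 stood on the other side. Hey1 held 1.62, 1.02 and 0.966 FPKM against 2.75, 2.12 and 2.13, Hes1 8.13, 8.54 and 10.01 against 11.4, 11.2 and 12.6, and Hey2 7.67 to 9.34 against 9.86 to 13.0. Hes6, of the same family as Hes1, overlapped at 15.6, 16.6 and 18.5 against 17.4, 11.3 and 16.3. Over the pathway 9 of 15 tested members were higher, 3 without overlap above, 20% against a background of 8.79%, and 2 below, 13.3% against 11.0%. The median of 0.19 stood at 0.07 without Control 3, 0.09 without CTX 3, 0.31 without Control 1, 0.30 without CTX 1 and -0.10 with a mean of at least 5 FPKM. In the TGF-beta family the median over 31 tested members was -0.04, with 3 not overlapping on the higher side, 9.68%, and 7 on the lower, 22.6%. Tgfbr3, given above, was the lower member of smallest p. The BMP targets Id1 (14.6, 14.3 and 17.9 against 28.3, 21.6 and 27.1 FPKM) and Id3 (83.3, 60.3 and 61.3 against 113, 100 and 100) were among the higher members, while Id2, of the same family, overlapped at 28.6, 85.4 and 141 against 101, 69.0 and 29.0. Grem1, a secreted BMP antagonist of cumulus cells, spread widely, with 5.68, 0.430 and 1.37 FPKM in Control and 10.1, 18.7 and 12.9 in CTX (log2 difference 2.35, SE 0.51).

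Interferon-stimulated genes, which encode antiviral proteins, leaned to CTX as a group. Of 48 listed genes 39 were tested, and 1 of these passed the filter through CTX alone. In CTX 32 were higher and 7 lower, 10 did not overlap on the higher side, 25.6% against the background of 8.79%, and none on the lower, and the median was 0.30. The 10 include the member that passed through CTX alone, whose lack of overlap followed from the filter. The background includes 59 such genes. Isg15, a ubiquitin-like protein, held 2.68, 3.73 and 3.97 FPKM in Control and 7.27, 8.70 and 16.1 in CTX (log2 difference 1.33, SE 0.28, limma adjusted p = 0.226). Ifit1, which binds viral RNA, held 1.75, 1.30 and 1.76 against 2.78, 5.69 and 4.79 FPKM, and its relative Ifit3 2.23, 2.59 and 2.85 against 3.41, 7.82 and 6.84. CTX 1 was the lowest CTX library in all of these. Gbp3, a guanylate-binding protein, held 3.10, 3.29 and 5.02 FPKM against 5.95, 8.16 and 9.70, and the membrane protein gene Ifitm3 59.9 to 73.4 against 83.9, 91.1 and 171. By the median deviation of its members in each library, the group was carried by CTX 2 at 0.29 and CTX 3 at 0.18 on one side and by Control 1 at -0.30 on the other. CTX 1 at -0.02 lay level with Control 2 at -0.02 and near Control 3 at -0.05. The median was 0.18 without Control 1, 0.47 without CTX 1 and 0.28 with the length trend removed.

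Lists of related function had medians near 0. Of 16 tested DNA-sensing genes 11 were higher and 5 lower, with a median of 0.07. The groups did not overlap in 1 above, 6.25% against a background of 8.79%, and in 3 below, 18.75% against 11.0%. Cgas, the sensor of cytosolic DNA, held 1.58, 0.946 and 0.441 FPKM in Control and 0.937, 1.27 and 1.15 in CTX, and its adaptor STING (Tmem173) 3.65, 3.25 and 3.85 against 3.14, 4.68 and 5.82. The groups overlapped in both. Among 21 MHC class I presentation genes the median was -0.06, with 4 not overlapping below, 19.0%, and 1 above, and with 5 below and 0 above once the length trend was removed. The peptide trimmer Erap1 (11.8, 12.3 and 12.1 against 8.03, 9.59 and 6.16 FPKM) and the peptide transporter Tap1 (9.67, 8.25 and 7.84 against 5.69, 7.26 and 6.27) were among the lower members. The higher one was the proteasome activator Psme2 (26.3, 18.9 and 30.1 against 40.7, 30.3 and 43.1). Among 15 inflammatory genes of NF-kB the median was -0.05, with 3 not overlapping above and 0 below. Of the 3, 1 passed the filter through CTX alone. This was Cxcl10, an interferon-induced chemokine, which held 0.706, 0.371 and 0.323 against 1.29, 1.31 and 1.78 FPKM on at most 66 reads.

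Heat shock chaperones, which refold damaged proteins, were higher in 20 of 25 tested members, with 8 not overlapping, 32.0%, all on the higher side, and a median of 0.20 (0.20 to 0.29 with 1 library left out). Hspa1a, the inducible Hsp70, held 1.53, 2.82 and 3.33 FPKM in Control and 7.51, 5.89 and 7.06 in CTX (log2 difference 1.17, SE 0.22), and its near-identical copy Hspa1b 3.68, 9.56 and 12.9 against 17.0, 17.98 and 16.3, so reads of the copies may be exchanged. Hspa8, the constitutive form, held 360, 424 and 387 FPKM against 542, 526 and 632. Dnaja1, its cochaperone, held 27.0, 27.2 and 29.3 against 58.4, 48.1 and 31.5. Control 1, at a library median of -0.25, and CTX 1, at 0.21, carried most of the group. Hsp90ab1, the most abundant member, overlapped at 726 to 756 against 656 to 901 FPKM. Genes of the unfolded protein response, by contrast, split: 4 of 25 did not overlap above, 16% against a background of 8.79%, and 6 below, 24% against 11.0%. The sensors Atf6 (11.2, 12.4 and 11.4 against 7.72, 8.87 and 5.98 FPKM) and Ern1 (21.6, 18.8 and 15.9 against 12.1, 15.7 and 9.26) were on the lower side and Herpud1 (35.2, 31.5 and 27.7 against 48.4, 42.1 and 47.3) on the higher.

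Antioxidant genes were higher in 21 of 27 tested members, with 5 not overlapping above, 18.5%, 1 below and a median of 0.23. With the length trend removed 3 of the 27 lay above, beside a background of 8.35%, and 1 below, and the median was 0.17. Sod2, the mitochondrial superoxide dismutase, held 8.05, 7.26 and 8.36 FPKM in Control and 13.3, 10.5 and 11.0 in CTX, and Gpx4, which reduces lipid peroxides, 173, 123 and 127 against 303, 206 and 184. CTX 1 at 0.295 carried this list, with CTX 2 near 0 and CTX 3 at 0.05, and the median was 0.15 without CTX 1. Glutathione transferases, which conjugate alkylating agents, were higher in 16 of 19, with 5 not overlapping above, 26.3%, and 3 with the length trend removed. CTX 3 at a library median of 0.41 and CTX 1 at 0.15 carried them. Gsta4, which conjugates lipid aldehydes, held 51.2, 22.8 and 39.3 FPKM against 78.8, 76.0 and 79.9. Aldehyde dehydrogenases, among them enzymes that inactivate cyclophosphamide metabolites, had a median of 0.02 over 16 tested members. Aldh1a1 held 143, 129 and 122 FPKM against 172, 154 and 158.

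The machinery of respiration and translation held most of its members on the higher side. Nuclear subunits of complex I were higher in 37 of 38 members (median 0.39, 12 not overlapping, 31.6%), those of complex III in 9 of 9 (0.34, 3), of complex IV in 12 of 12 (0.46, 4) and of ATP synthase in 15 of 17 (0.40, 6). Cytoplasmic ribosomal proteins were higher in 80 of 83 (median 0.42, 26 not overlapping above, 31.3%, and 1 below) and mitochondrial ribosomal proteins in 66 of 77 (0.25, 22 above). Complex II, of 4 subunits, had a median of 0.12. Ndufv2, of complex I, held 44.3, 36.1 and 40.3 FPKM in Control and 71.4, 51.3 and 65.7 in CTX. Uqcrq, of complex III, held 56.4, 38.4 and 46.6 against 95.0, 64.1 and 90.1 FPKM, and Rps7, of the small ribosomal subunit, 249, 206 and 199 against 375, 277 and 385. In each of these 3 genes CTX 2 was the lowest CTX library.

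The libraries that carried these lists were those in which short genes stood high, CTX 1 and CTX 3. The library medians of ribosomal proteins were 0.43 in CTX 3 and 0.27 in CTX 1, but -0.09 in CTX 2, below Control 1 at -0.03. Complex I read 0.38, 0.32 and -0.08 in CTX 3, 1 and 2, and -0.02, -0.35 and -0.23 in Control 1, 2 and 3. With each library's length trend removed, the medians stood at 0.28 for cytoplasmic ribosomal proteins, 0.18 for mitochondrial ones, 0.25 for complex I, 0.22 for complex III, 0.24 for complex IV and 0.27 for ATP synthase. The counts above without overlap then fell, beside a background of 8.35%, to 20 of 83 for cytoplasmic ribosomal proteins, 8 of 38 for complex I, 2 of 9 for complex III and 2 of 17 for ATP synthase, and stayed at 4 of 12 for complex IV. Mitochondrial ribosomal proteins had 14 of 77 above and 3 below. Most members of complexes I, III and IV, of ATP synthase and of both ribosomes overlapped between the groups. Atp5a1, of ATP synthase, overlapped at 284, 253 and 249 FPKM against 292, 268 and 168.

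Transcripts of the mitochondrial genome were higher in 13 of 13 members, with a median of 0.77 and 3 not overlapping, and 1 library carried most of it. Cytochrome b, mt-Cytb, held 6724, 5979 and 6911 FPKM in Control and 9231, 7494 and 20040 in CTX. For mt-Atp6 the values were 223, 131 and 189 against 731, 190 and 1847. CTX 3 was highest in both, and CTX 2 lay above every Control library in mt-Cytb but below Control 1 in mt-Atp6. Without CTX 3 the median over the genome was 0.37. Histone genes, 24 tested of 82, were higher in 21, with 7 not overlapping above and a median of 0.44 (0.28 with the length trend removed). Hist1h2bc held 17.6, 10.4 and 11.1 FPKM against 42.3, 25.0 and 27.7. Most histone transcripts lack a poly(A) tail, and 1 of the 24 passed the filter through CTX alone. Proteasome subunits were higher in 29 of 38 (median 0.22, 8 not overlapping above), carried by CTX 1 at 0.38, with CTX 3 at -0.09 and a median of 0.11 without CTX 1.

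**Figure D3:**
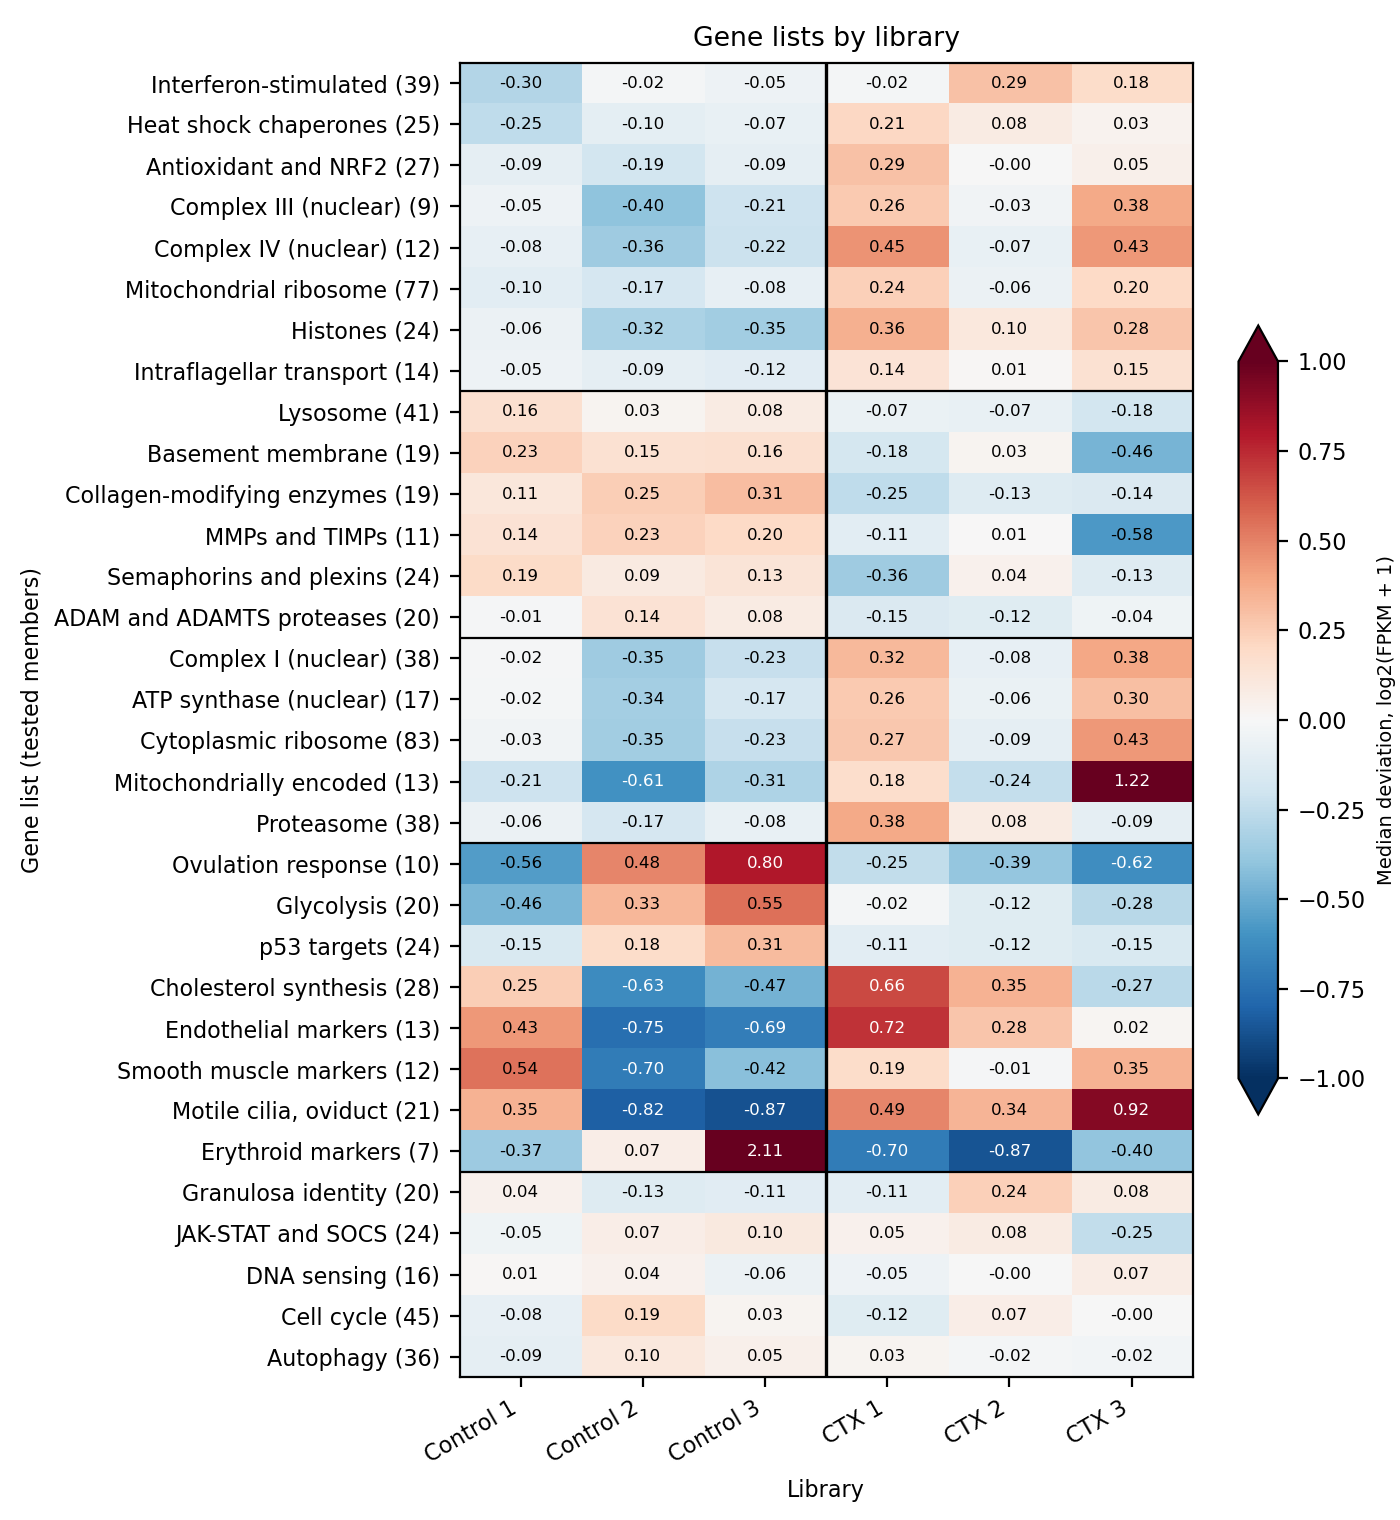
Median deviation of the tested members of 32 gene lists (rows, number of tested members in brackets) from the 6-library mean on log2(FPKM + 1) in each library (columns); red is above and blue below, and colours saturate at 1 on either side. The first 8 lists have all CTX libraries above all Control libraries, the next 6 all below. Lines then divide lists carried by CTX 1 and CTX 3 (proteasome: CTX 1), lists in which Control libraries stand apart, and lists without a common shift.

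Lists of the extracellular matrix and its turnover had median log2 differences below 0. The library medians of fibrillar collagens and of elastic and adhesive glycoproteins overlapped between the groups. Of 19 tested basement membrane genes 18 were lower, 10 without overlap, 52.6% against a background of 11.0%, with a median of -0.39. Perlecan, Hspg2, the heparan sulfate proteoglycan of the follicular basal lamina, held 50.7, 86.1 and 87.4 FPKM in Control and 25.1, 34.1 and 21.7 in CTX (log2 difference -1.42, SE 0.26, limma adjusted p = 0.226). Collagen IV followed with Col4a1 at 95.8, 135 and 163 against 79.1, 78.0 and 40.3 FPKM and Col4a2 at 67.8, 106 and 127 against 59.8, 53.7 and 32.1. The laminin gene Lamb2 held 68.8, 102 and 101 against 37.5, 51.7 and 53.5, and Lamc1 35.6, 39.9 and 41.7 against 21.0, 29.5 and 15.5. In Hspg2, Col4a1, Col4a2 and Lamb2 Control 1 lay closer to the highest CTX library than to Control 2. CTX 3, at a library median of -0.46, carried the largest share, and CTX 2 stood at 0.03. The median was -0.23 with the length trend removed, with 7 of 19 below without overlap against 9.53%.

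Enzymes that modify collagen showed the difference more evenly. Of 19 tested, 18 were lower, 9 without overlap, 47.4% against a background of 11.0%. The library medians were -0.25, -0.13 and -0.14 in CTX and 0.11, 0.25 and 0.31 in Control. The median was -0.37, and -0.35 with the length trend removed. P3h2, a prolyl 3-hydroxylase of collagen IV, held 4.97, 5.18 and 6.49 FPKM in Control and 1.85, 2.92 and 1.70 in CTX (log2 difference -1.06, SE 0.19). Plod1, a lysyl hydroxylase, held 18.9, 20.5 and 20.9 against 13.8, 15.6 and 12.1. Loxl2, a crosslinking lysyl oxidase, held 18.7 in Control 1 and 59.2 and 92.3 in the other Control libraries, against 15.04, 16.8 and 6.05, so its size rested on Control 2 and 3. The collagen chaperone Serpinh1, the most abundant of the list, overlapped at 476 to 536 against 439 to 507 FPKM.

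Fibrillar collagens were lower in 12 of 16, 7 without overlap, with a median of -0.29. It stood at -0.13 with the length trend removed, -0.14 with library weights, -0.15 without Control 1 and -0.43 without Control 3. The library medians were 0.27, -0.10 and 0.18 in Control and -0.12, 0.06 and -0.27 in CTX. CTX 2 thus lay above Control 2. Of the 16 tested, 1 passed the filter through Control alone. Col1a1 held 58.7, 46.3 and 50.0 FPKM in Control and 32.9, 39.8 and 27.1 in CTX, and Col3a1 73.0, 72.0 and 71.5 against 55.4, 51.3 and 36.6. These are also markers of fibroblasts, of which 9 of 14 were lower. The summed FPKM of the fibroblast markers was 432, 348 and 340 in Control and 328, 335 and 344 in CTX, and its part in the collagen values was not tested. Matrix metalloproteinases and their inhibitors were lower in 8 of 11, 4 without overlap, with a median of -0.51 carried by CTX 3 at -0.58, and of -0.28 without CTX 3. The gelatinase gene Mmp2 held 7.43, 9.23 and 9.07 FPKM against 4.51, 5.18 and 3.52. Among 20 tested ADAM and ADAMTS proteases 6 lay below without overlap, of which 1, Adam23, passed the filter through Control alone, and 1 lay above. The shedding enzymes Adam10 (61.8, 57.7 and 65.6 against 42.6, 51.2 and 38.3 FPKM) and Adam17 (23.6, 24.4 and 24.2 against 16.5, 18.9 and 13.7) spread more in CTX than in Control. The median of that list was -0.24, -0.13 without CTX 3, -0.38 without CTX 2 and -0.06 with the length trend removed.

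Lists of surface receptors varied. Semaphorins and plexins, guidance ligands and their receptors, were lower in 18 of 24, with 9 not overlapping, 37.5%, all below. Plxnb2 held 73.4, 77.5 and 74.9 FPKM in Control and 34.4, 62.2 and 52.0 in CTX, and Plxnb1 37.9, 52.3 and 56.8 against 25.5, 33.8 and 29.9. The median of this list was -0.41, and -0.24 with the length trend removed, when 9 still lay below. It was carried most by CTX 1, with library medians of -0.36, 0.04 and -0.13 in CTX and 0.19, 0.09 and 0.13 in Control. The median was -0.29 without CTX 1 and -0.28 without Control 1. Ephs and ephrins, also contact receptors and ligands, were higher in 7 and lower in 8 of 15, with 2 not overlapping below and a median of -0.07 that turned to 0.08 without CTX 1 and 0.02 without Control 3. Among 16 integrins 10 were lower, 4 lay below and 1 above without overlap, and the median of -0.17 stood at -0.09 without CTX 1, -0.12 without Control 2 and -0.30 without Control 3, with the fibronectin receptor gene Itga5 at 17.3, 34.3 and 35.7 against 14.4, 14.6 and 13.1 and the vitronectin receptor gene Itgav at 41.5, 33.6 and 33.0 against 20.8, 27.2 and 17.2.

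Lysosomal enzymes and membrane proteins, which break down what endocytosis and autophagy deliver, were lower in 34 of 41 members, with 14 not overlapping, 34.1%, all below. The median was -0.21, -0.20 with the length trend removed and -0.09 without Control 1. With the trend removed 11 lay below. The library medians separated by little, at 0.16, 0.03 and 0.08 in Control and -0.07, -0.07 and -0.18 in CTX. Arsb, a sulfatase, held 36.8, 36.0 and 35.2 FPKM in Control and 27.2, 25.0 and 15.2 in CTX. The peptidase gene Tpp1 held 42.2, 49.2 and 49.1 against 30.6, 36.3 and 35.2. Psap, the saposin precursor and the most abundant member, had the largest difference, at 869, 1678 and 2182 FPKM against 953, 761 and 515, but Control 1 lay within the CTX range. The proton pump that acidifies lysosomes had a median of 0.04 over 20 tested members, with 3 not overlapping above and 0 below, and 1 of the 20 passed the filter through CTX alone. The autophagy machinery had a median of -0.02 over 36, with 3 not overlapping on either side. Sqstm1, the autophagy receptor p62, held 114, 158 and 159 FPKM against 146, 160 and 152.

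A further set of lists differed between the groups because Control 2 and Control 3 stood apart from the other 4 libraries, with Control 1 among the CTX libraries. Ovulation response genes, which luteinizing hormone induces, had library medians of 0.48 and 0.80 in Control 2 and 3, -0.56 in Control 1, and -0.25, -0.39 and -0.62 in CTX. Adamts1, a protease of the ovulating follicle, held 21.0 FPKM in Control 1, 135 and 203 in Control 2 and 3, and 17.2, 11.5 and 6.64 in CTX. Runx1, a transcription factor of the same response, held 4.74, 24.9 and 27.8 against 4.00, 4.99 and 3.25. Of 22 listed genes 10 passed the filter, and their median of -0.45 stood at -0.81 without Control 1 and -0.25 without Control 3. The same libraries held more of the glycolysis genes, with medians of 0.33 and 0.55 against -0.46 in Control 1 and -0.02 to -0.28 in CTX, for example Pgam1, a mutase of the pathway, at 112, 219 and 237 against 111, 142 and 91.6 FPKM. The glycolysis median of -0.39 stood at -0.76 without Control 1, -0.25 without Control 2, -0.15 without Control 3 and -0.24 without CTX 3.

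Targets of p53, the factor that DNA damage activates, followed this pattern too. Of 24 tested, 17 were lower in CTX, 5 without overlap, 20.8% against a background of 11.0%. The library medians were 0.18 and 0.31 in Control 2 and 3 and -0.11 to -0.15 in the other 4 libraries. The median of -0.19 stood at -0.36 without Control 1 and -0.30 without CTX 2. Cdkn1a (p21, an inhibitor of cyclin-dependent kinases) held 7.05, 30.4 and 40.7 FPKM in Control and 6.74, 6.93 and 5.004 in CTX. All CTX values lay below all Control values, but Control 1 was barely above CTX 2. Zmat3, an RNA-binding p53 target, did not overlap either, at 2.82, 5.71 and 5.33 against 2.21, 2.59 and 1.51. There too Control 1 lay closer to CTX 2 than to the other Control libraries. Without Control 1 limma called 5 of the 24, beside 2.94% of all tested genes: Cdkn1a, Zmat3, Trp53inp1 and Eda2r lower and Plk2 higher in CTX. That fit leaves out the Control library that lay with CTX, so its calls restate the divide and are no separate evidence. Trp53 itself held 21.8, 35.0 and 33.7 against 19.8, 23.9 and 34.7. Cdkn2a, which encodes the senescence marker p16, was below the filter, at 0.0951 to 0.905 FPKM in Control and 0.602 to 0.987 in CTX on 2 to 19 reads, too few to show a difference.

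Cholesterol synthesis genes stood on the other side of the same divide. Of 28 tested, 20 were higher in CTX, but only 3 did not overlap above and 3 below, 10.7% each, and the library medians were -0.63 and -0.47 in Control 2 and 3, 0.25 in Control 1, and 0.66, 0.35 and -0.27 in CTX. The median of 0.63 ran from 0.34 without CTX 1 to 0.88 without Control 1. Hsd17b7, an enzyme of the pathway that is also induced in luteal cells, held 163, 10.7 and 13.3 FPKM in Control and 271, 197 and 67.3 in CTX. Hmgcs1, an early enzyme of the pathway, held 128, 56.3 and 78.5 against 251, 194 and 92.4. Pmvk, an early kinase, separated the groups, at 11.9, 9.34 and 7.15 against 24.9, 16.8 and 15.7. Without Control 1, 6 of these 28 genes were called, beside 2.94% of all tested genes. All were higher: Fdft1, Hsd17b7, Lss, Mvd, Nsdhl and Tm7sf2. That fit sets CTX against Control 2 and 3 alone, so its calls restate the divide.

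Single genes traced the divide over a wide range. The following were chosen after their values were seen, from those called without Control 1. Tinagl1, a matrix protein, held 10.1 FPKM in Control 1, 105 and 150 in Control 2 and 3 and 5.68 to 7.82 in CTX, and the chemokine receptor gene Cxcr4 6.48, 51.1 and 68.1 against 7.28 to 8.71. Ces2a, a carboxylesterase, ran the other way, at 36.3 FPKM in Control 1, 0.709 and 0.283 in Control 2 and 3, and 73.0, 37.3 and 44.5 in CTX. Cyp17a1, the theca enzyme that makes androgens, held 16.6, 0.584 and 0.986 against 7.06, 24.7 and 7.65. In each of these Control 1 lay closer to CTX than to the other Control libraries, and the sizes rest on Control 2 and 3.

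**Figure D4:**
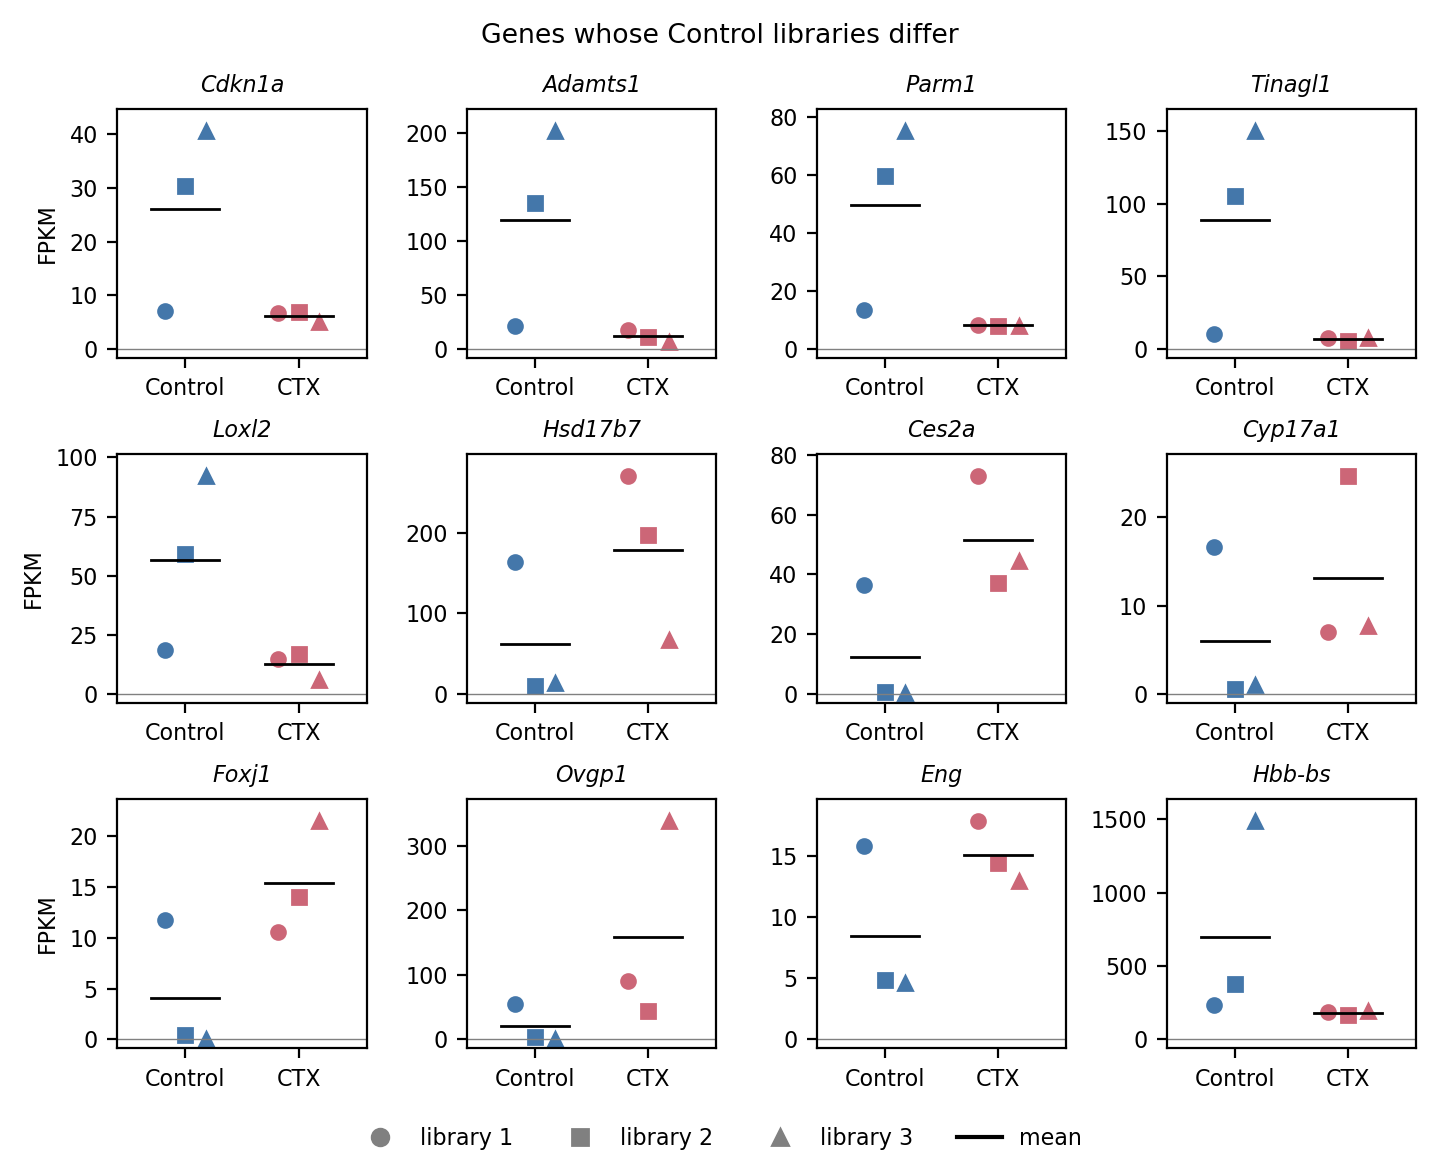
FPKM (vertical axis, from 0) of 12 genes in Control and CTX; points are libraries, with the symbol giving the replicate number, and the bar is the mean of 3. Control 1 lies near the CTX libraries and away from Control 2 and 3 in most panels, and Hbb-bs is by far highest in Control 3.

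Markers of other cells moved with this divide. Motile cilia and oviduct markers were higher in 21 of 21 tested genes, with 6 not overlapping, 28.6% against a background of 8.79%, and a median of 0.95. Their summed FPKM was 135, 21.5 and 14.6 in Control and 186, 123 and 481 in CTX, over 28 listed genes of which 1 was at 0 in every library. Ovgp1, the oviduct glycoprotein, held 55.5, 4.01 and 1.01 FPKM in Control and 91.0, 44.4 and 339 in CTX, and Foxj1, the master regulator of motile cilia, 11.7, 0.425 and 0.0231 against 10.6, 14.0 and 21.5. Endothelial markers summed to 118, 46.6 and 45.5 against 145, 103 and 82.0 FPKM, and 13 of 13 tested were higher with 1 not overlapping and a median of 0.65 that stood at 1.12 without Control 1 and 0.43 without Control 2. The endothelial gene Eng held 15.8, 4.83 and 4.60 against 17.9, 14.5 and 12.9. Smooth muscle markers summed to 244, 82.2 and 112 against 204, 169 and 231 FPKM. The part of these cells in the other differences was not tested.

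Among blood cell markers, those of erythroid cells were highest in Control 3. Erythroid markers were lower in 7 of 7 tested genes, 3 without overlap, 42.9% against a background of 11.0%. Their median was -1.24, and -0.39 without Control 3. The library medians were -0.37, 0.07 and 2.11 in Control 1 to 3 and -0.70, -0.87 and -0.40 in CTX 1 to 3. Their summed FPKM was 3339 in Control 3 and 361 to 813 in the other 5 libraries. Hbb-bs, a beta globin, held 235, 375 and 1490 FPKM against 186, 166 and 190. T and NK cell markers summed to 24.6, 33.2 and 16.7 in Control and 13.7, 15.8 and 15.9 in CTX. In bulk RNA, fewer cells of a type and less RNA per cell cannot be told apart.

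The cells carried the markers of granulosa cells in all libraries. The 20 identity genes were all tested, 10 higher and 10 lower, with a median of -0.02 and a summed FPKM of 7480, 5096 and 5479 in Control and 5797, 8218 and 6880 in CTX. Foxl2, the transcription factor that maintains granulosa identity, held 72.6, 85.3 and 92.1 FPKM in Control and 67.8, 86.7 and 72.4 in CTX. The inhibin subunit gene Inha held 4776, 2865 and 2944 against 3439, 4951 and 4067, and the activin and inhibin subunit gene Inhba 113, 41.6 and 82.8 against 191, 249 and 122. Inhba was the higher identity gene of largest size, with a log2 difference of 1.28 (SE 0.39). Nap1l5, an imprinted gene, held 116, 108 and 99.1 FPKM against 175, 207 and 264.

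The hormone system of the growing follicle held genes with overlapping and with separate groups. Amh, the anti-Müllerian hormone, held 379, 346 and 540 FPKM in Control and 172, 208 and 424 in CTX (log2 difference -0.74, SE 0.35), while its receptor gene Amhr2 did not overlap, at 107, 137 and 128 against 90.8, 96.9 and 89.6. Fshr, through which follicle-stimulating hormone acts, held 45.7, 25.6 and 29.9 against 18.2, 24.2 and 33.1. Cyp19a1, the aromatase that makes oestrogen, held 10.1, 5.004 and 10.5 against 20.2, 37.6 and 7.93. CTX 3 lay inside the Control range in Amh, Fshr and Cyp19a1. Hsd3b1, which makes progesterone, did not overlap, at 4354, 2010 and 2500 FPKM against 5655, 4458 and 4637. The growth regulators of the IGF system were lower in 10 of 15 and higher in 5. Of these 15, 2 did not overlap below, 13.3% against a background of 11.0%, and 1 above, 6.67% against 8.79%. Igfbp5, a binding protein, held 197, 136 and 200 FPKM against 60.8, 133 and 90.4, where CTX 2 lay just under Control 2. Genes of the PI3K and mTOR pathway, which governs follicle activation, were lower in 20 of 24, 4 without overlap, 16.7%, with a median of -0.20. With the length trend removed the median was -0.09, with 1 below and 1 above without overlap. Mtor held 10.3, 11.7 and 11.7 FPKM against 6.03, 8.72 and 8.65.

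Beside the p53 targets, lists of DNA repair, the cell cycle and cell death had medians nearer to 0. Of 39 crosslink repair and checkpoint genes 15 were higher and 24 lower, 1 not overlapping above and 3 below, with a median of -0.09, and Atm, the kinase that senses double-strand breaks, held 2.13, 2.68 and 2.42 FPKM in Control and 1.32, 2.10 and 0.542 in CTX. The 45 cell cycle genes had a median of -0.07 with 3 not overlapping on either side, 6.67% each, below the backgrounds of 8.79% and 11.0%, and none at an unadjusted p under 0.05. Among 25 BCL2 family and caspase genes the median was 0.13, with 4 not overlapping on the higher side and 1 on the lower. Of those 4, Casp1 and Bik passed the filter through CTX alone, so their lack of overlap followed from the filter. The count is therefore not set against the background. Casp8, the initiator caspase of death receptors, stood at 8.10, 9.21 and 8.01 FPKM in Control and 11.2, 10.9 and 10.9 in CTX, and Cycs, which encodes cytochrome c, stood at 19.2, 15.1 and 17.0 against 29.3, 21.0 and 23.9. The lower member was Bmf, an activator of apoptosis released on detachment from the matrix, which held 10.3, 10.5 and 12.7 FPKM in Control and 6.59, 6.83 and 4.16 in CTX (log2 difference -0.85, SE 0.20, limma adjusted p = 0.255).

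**Figure D5:**
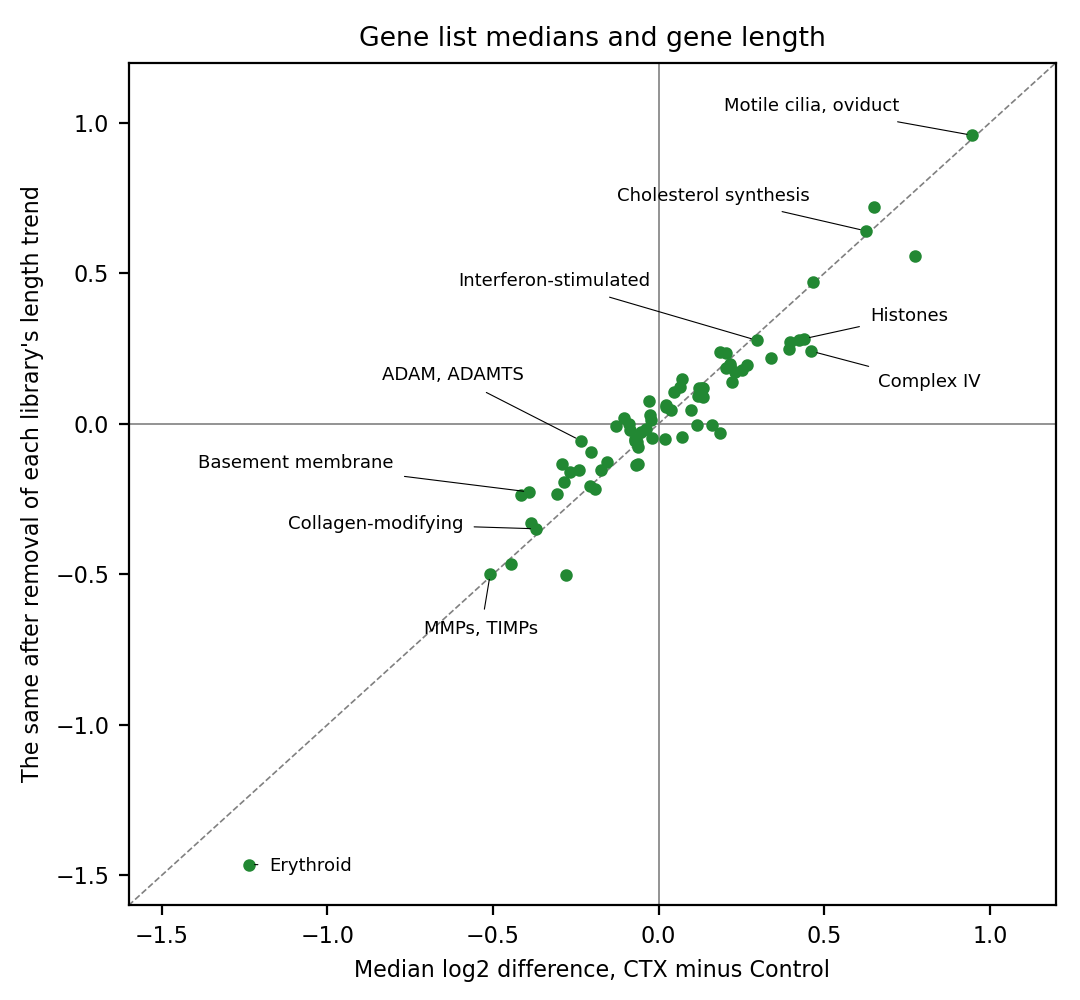
Median log2 difference, CTX minus Control, of 73 gene lists (points) before (horizontal axis) and after (vertical axis) each library's trend of level on gene length was removed; the dashed line marks equal values. Lists of short genes such as complex IV and of long genes such as ADAM and ADAMTS move towards 0, while interferon-stimulated genes, collagen-modifying enzymes and MMPs stay near the line.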

How the data were processed

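Polyadenylated RNA of granulosa cells was sequenced, and the deposited table gives FPKM, which the authors computed per gene. Per the submitters' processing notes, reads were handled with featureCounts 1.5.0-p3, HISAT2 2.0.5, fastp 0.23.2 and DESeq2 1.20.0 on GRCm39. Whether counting used strand is not stated, so overlapping and antisense genes cannot be told apart, and near-identical copies may share reads. Columns were matched to Control 1 to 3 and CTX 1 to 3 by name. Genes with at least 1 FPKM in at least 3 of the 6 libraries were kept. Of those, 59 passed through CTX alone and 58 through Control alone.

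Differences, CTX minus Control, were fitted on log2(FPKM + 1) with limma 3.58.1 in R 4.3.3, over the 6 libraries, with moderated variances and Benjamini-Hochberg adjustment over all 13793 genes at 0.05. The fit was tested on simulated data. A gene was counted as not overlapping when all CTX values lay on 1 side of all Control values. A gene list is described by its counts and by its median log2 difference, and its library median is the median deviation of its tested members from the 6-library mean. Exon lengths came from GENCODE M21. The length trend was removed within each library, in an alternative chosen after seeing the data, for 13575 genes with a length. Recovered reads were obtained from FPKM and exon length, with whole numbers to within 0.02 reads for 91.4% to 91.6% of nonzero values in these libraries, and were used for depth and for limma's voom.

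The members and lists were chosen with earlier results of these data known, so their counts are descriptions. Named were the 12 genes per direction of smallest p among those not overlapping with a mean of at least 5 FPKM, and in each list up to 4 genes of smallest p and 2 of highest level. Genes of interest to the follicle, DNA sensing and marker lists were always given. Jun, Egr1, Hspa1b, Bik, Adam23, Foxj1, Tinagl1, Cxcr4, Ces2a and the genes listed as called without Control 1 were named after their values were seen. The CTX_HCQ libraries entered only the fit over all 9 libraries. Alternatives changed the pseudocount, filter, scaling, library weights, replicate block and the libraries included.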

Additional observations from a re-analysis of the deposited data

How the results depend on the processing

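No gene was called in 16 of the 18 alternative settings, and the exceptions were library weights, with 795 genes, and the fit without Control 1, with 405, so that leaving out 1 library gave 0 to 405. The genes at an unadjusted p under 0.05 numbered 1246 with a mean of at least 5 FPKM, where fewer genes were tested, 3877 with library weights, 1082 with all 9 libraries in the fit, and 849 to 2701 with 1 library left out. Genes with all CTX values higher numbered 1916 without a filter, 742 with a mean of at least 5 FPKM and 1506 to 2660 with 1 library left out. Those with all CTX values lower numbered 2324, 1000 and 1783 to 3090. Fewer samples make groups overlap less often. None of the 36 lists with a median of at least 0.2 in size changed sign in any setting, and 34 of 73 lists moved in at least 1. Same-numbered libraries deviated together at correlations of 0.113, 0.122 and 0.008, and unlike-numbered ones at -0.162 to 0.024. The labels do not say what the numbers mark, so they were not taken as pairs. With the replicate block 0 genes were called and 2218 had an unadjusted p under 0.05.

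Of 136 named genes 8 changed direction in some setting, none of them past the threshold, and the cause was not tested. With library weights the log2 difference was 0.058 for Atp5a1, 0.378 for Egr1 and -0.016 for Sqstm1. With quantile normalization it was -0.050 for Hsp90ab1, -0.483 for Inha and -0.081 for Sqstm1, and with equal FPKM sums -0.001 for Hsp90ab1. With 1 library left out it ran from -0.298 to 0.098 for Atp5a1, from -0.085 to 0.336 for Cgas, from -0.431 to 0.379 for Egr1 (0.055 without CTX 3), from -0.044 to 0.184 for Hsp90ab1, from -0.890 to 0.243 for Id2, from -0.083 to 0.207 for Jak1 (-0.019 without Control 3) and from -0.051 to 0.183 for Sqstm1. Genes on a few reads, such as Cdkn2a and Cxcl10, are limited by depth.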
